A study of Mus musculus with 9 samples.

Results

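The mitochondrial genome of the mouse carried 37 of the 28051 genes measured in growing oocytes, and its transcripts are described here by class. Members were chosen by their place on the mitochondrial chromosome (chrM) and not by any measured level. They comprise 2 genes of ribosomal RNA (rRNA), 13 genes of messenger RNA (mRNA) and 22 genes of transfer RNA (tRNA). RNA was taken from 9 pools of 30 oocytes of 50–60 μm in diameter, 10 of 50–55 μm and 20 of 55–60 μm, collected at 18 days postpartum (dpp), with 3 pools each of XX, XO, and XY oocytes. Mating of B6.YTIR males with B6 females gave the XY females and, as littermates, the XX females, so that XY oocytes carried the Y chromosome of that line. XO females came from Paf carrier males mated with B6 females, on a background backcrossed from C3H/HeSnJ to B6. The labels give C57BL/6 as the strain of all 9 pools, and the mothers of all 3 genotypes were B6 females. XO females therefore differed from the other genotypes also by the cross of their fathers, and this cannot be told apart from the sex chromosomes. No agent was given to any genotype. How many females gave oocytes to a pool is not given in the sources used here. The p-values measure the spread between these pools.

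Libraries were made by Smart-seq3, which places a unique molecular identifier (UMI) at the 5′ end of each RNA before amplification, and PCR duplicates of a UMI count as 1. The labels describe the RNA as polyA RNA, and cDNA synthesis was primed with oligo-dT. UMIs of an rRNA or tRNA gene therefore count only RNAs copied from that primer. They do not measure the whole amount of that rRNA or tRNA. A level is given as UMIs per pool, as a percentage of UMIs, or as normalized CPM, the authors' UMI counts scaled with ERCC spike-in RNAs that had been added to each pool. A pool is named by its genotype and number, such as XO1.

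Mitochondrial DNA is a small circular genome that is passed on through the oocyte. Each strand is transcribed as a long precursor RNA, from which rRNAs, mRNAs and tRNAs are cut, mostly at the tRNAs that lie between the other genes. The rRNAs build the mitochondrial ribosome, the tRNAs serve translation inside the organelle, and the mRNAs encode subunits of complex I, complex III, complex IV and the ATP synthase (complex V) of oxidative phosphorylation. Most genes are read from one strand, here called plus, whereas mt-Nd6 and 8 of the tRNAs are read from the minus strand. Growing oocytes accumulate mitochondria and mitochondrial DNA in large number.

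Genes received between 2130145 and 3157338 UMIs per pool, and spike-ins 5388 to 18532. All 10 oocyte markers were detected in every pool, and their normalized CPM summed to 24513–25490 in XX oocytes, 17781–31281 in XO oocytes and 18417–23048 in XY oocytes. XO1 stood apart among the XO pools, with 9501 UMIs of the egg coat gene Zp2 and 24 of Zp3, against 28699 and 659 in XO2 and 28781 and 1010 in XO3. XY1 was likewise the lowest XY pool for both genes, with 21621 and 47 UMIs, against 50196 and 226 in XY2 and 49396 and 561 in XY3. Among the oocyte markers Oosp1 alone had more UMIs in XO1, 17648 against 4824 in XO2 and 4420 in XO3. Granulosa cell markers summed to 46.6–66.1 normalized CPM for XX, 54.4–64.9 for XO and 56–90.9 for XY pools, and of their 12 genes 8 were in the table. Anti-Müllerian hormone (Amh) and Foxl2, which define granulosa cells, were not among those 8. Markers of theca and stroma summed to at most 14.2 normalized CPM and those of blood cells to at most 1.69. The 5 Y-linked genes checked had together with Xist between 1280 and 1517 UMIs in the XY pools, of which Xist gave at most 1, and at most 2 in the other pools. 

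Mitochondrial transcripts made up very different shares of the RNA in pools of one genotype. They were 5.09, 5.55 and 3.01% of gene UMIs in XX, 13.1, 3.12 and 2.65% in XO, and 10.8, 6.02 and 3.88% in XY oocytes. XO1 and XY1 were the highest of all pools, and the other 7 lay between 2.65 and 6.02%. Counting error was small beside this spread, since Wilson 95% intervals reached at most 0.0436 percentage points to either side of the share. The mean share of XX oocytes was 4.55 ± 1.36% (SD, n = 3), that of XO oocytes 6.30 ± 5.92% and that of XY oocytes 6.89 ± 3.52%, and the ranges of all 3 genotypes overlapped. Without XO1 the XO mean was 2.88%, below that of XX oocytes, and without XY1 the XY mean was 4.95%. With 3 pools against 3, no exact two-sided permutation test can reach a p below 0.1, and none was made. The sum of the oocyte markers was lowest in the pools with the highest mitochondrial share, 17781 normalized CPM in XO1 and 18417 in XY1. The marker Oosp1 went the other way and was highest in these pools, with 9137 and 5572. The part of the markers in the mitochondrial share was not tested.

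**Figure D1:**
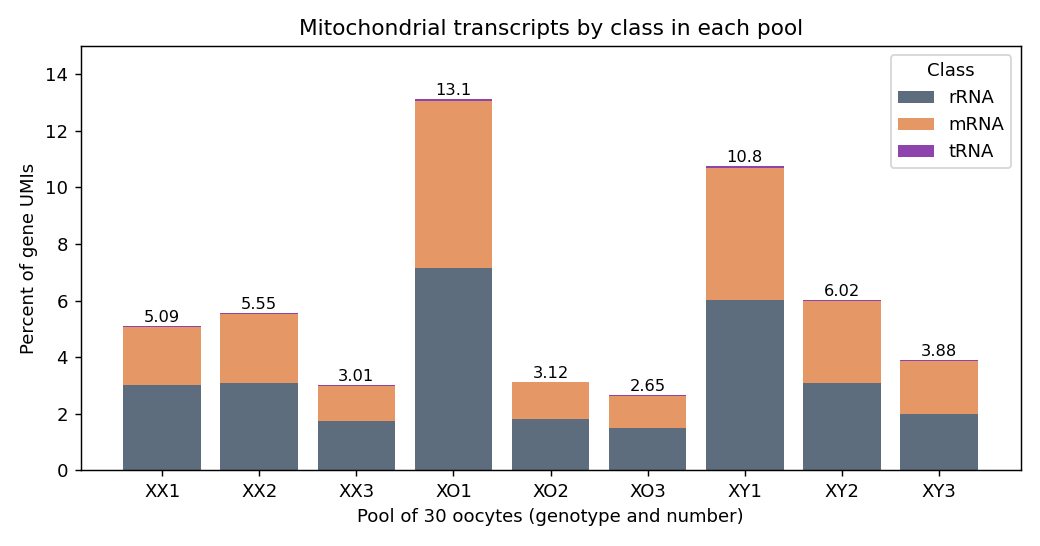
Stacked bars give the percent of gene UMIs (vertical axis, from 0) that fell on mitochondrial rRNA, mRNA and tRNA genes in each pool of 30 oocytes (horizontal axis), with the sum printed above. XO1 at 13.1% and XY1 at 10.8% stand above the other 7 pools, whereas the division into classes looks alike in all 9.

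The classes kept a narrower proportion to each other than to the rest of the RNA. Over the 9 pools the mitochondrial share varied 4.95-fold, from the lowest to the highest, while the share of rRNA among mitochondrial UMIs varied 1.16-fold and that of mRNA 1.20-fold. In XX oocytes rRNA was 58.9, 55.3 and 58.1% of the mitochondrial UMIs, in XO oocytes 54.4, 58.0 and 55.8%, and in XY oocytes 55.9, 51.0 and 51.5%. The mRNA share was 40.6–44.2% in XX, 41.5–45.1% in XO and 43.4–48.5% in XY pools. The tRNA class had the fewest UMIs from these oligo-dT primed libraries, 356 to 1717 per pool, or 0.464 to 0.714% of the mitochondrial UMIs. The coefficient of variation over the 9 pools was 62.0% for the mitochondrial share of gene UMIs, and 5.04, 6.38 and 14.0% for the shares of rRNA, mRNA and tRNA among mitochondrial UMIs.

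The ratio of rRNA to mRNA UMIs had its lowest values in XY oocytes but did not separate the genotypes. It was 1.45, 1.25 and 1.40 in XX, 1.21, 1.40 and 1.28 in XO and 1.29, 1.05 and 1.07 in XY pools. Means were 1.37 ± 0.105 (SD, n = 3), 1.29 ± 0.0976 and 1.14 ± 0.131, respectively. XY2 and XY3 were below all XX and XO pools, and XY1 was within their range, so that the ranges overlapped in all 3 contrasts. In the matrix from which the authors had regressed batch effects, after its log2 values were turned back to the linear scale, the same ratio was 1.26–1.46 in XX, 1.23–1.38 in XO and 1.05–1.30 in XY pools, with the same order of the means.

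The ratio of tRNA to mRNA UMIs turned on a single gene in a single pool. The tRNA UMIs were 1.19, 1.14 and 1.33% of the mRNA UMIs in XX, 1.26, 1.23 and 1.22% in XO, and 1.64, 1.01 and 0.966% in XY oocytes, so that XY1 was the highest and the other XY pools the lowest. In XY1, 627 of the 1635 tRNA UMIs came from mt-Ty, described with the tRNAs below. Without mt-Ty, a choice made after its values were seen, the XY pools had 1.01, 1.00 and 0.964%, below the 1.14–1.33% of XX and the 1.22–1.26% of XO oocytes with no overlap. The means without mt-Ty were 1.21 ± 0.102 for XX, 1.24 ± 0.0204 for XO and 0.993 ± 0.0253 for XY pools (SD, n = 3). When mt-Tm, the tRNA with the most UMIs, was also left out, the XY range of 0.503–0.567% lay below that of XO oocytes, 0.602–0.706%, and overlapped with that of XX oocytes, 0.527–0.660%.

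**Figure D2:**
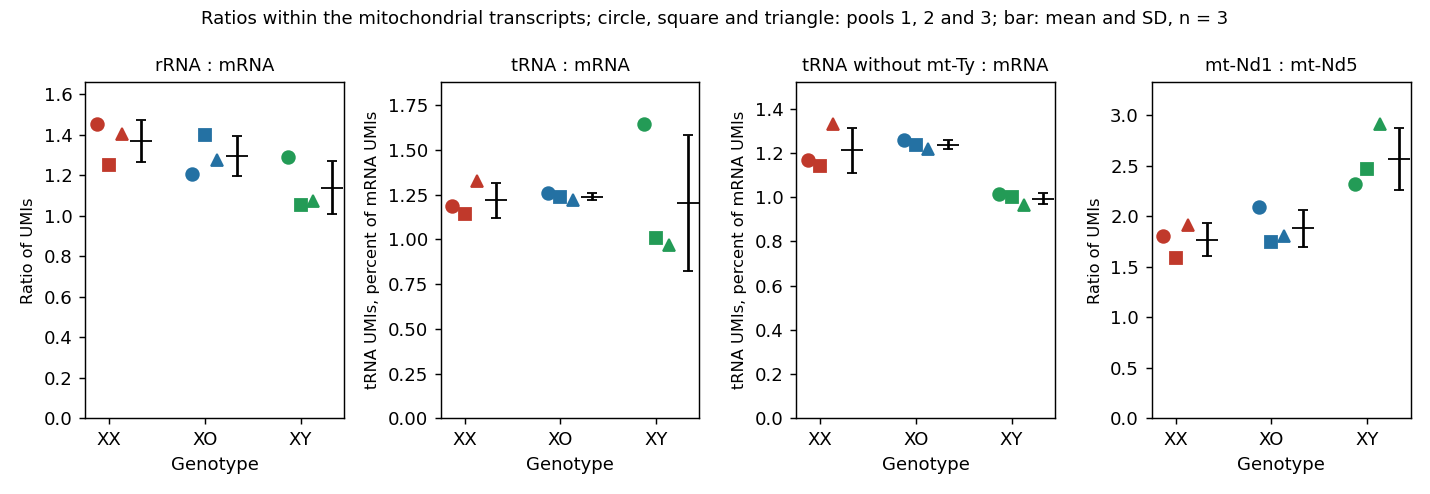
Each panel gives a ratio of UMIs on a linear axis from 0 by genotype, with 1 point per pool and the mean and SD (n = 3) beside the points. The XY pools are below the XX and XO pools in the ratio of tRNA without mt-Ty to mRNA and above them in mt-Nd1 to mt-Nd5, whereas rRNA to mRNA overlaps.

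Of the 37 genes, mt-Rnr2 had the most UMIs in all 9 pools. The gene mt-Rnr2 (chrM:1094-2675, plus strand) encodes the 16S rRNA of the large ribosomal subunit, and mt-Rnr1 (chrM:70-1024, plus strand) the 12S rRNA of the small subunit. In XX oocytes mt-Rnr2 had 62613, 64838 and 37925 UMIs, in XO oocytes 141253, 34768 and 30980, and in XY oocytes 109715, 69077 and 51547. It was 42.0–49.3% of the mitochondrial UMIs, and XY2 and XY3, with 43.2 and 42.0%, were below every other pool. The UMIs of mt-Rnr1 were 12224, 10255 and 8038 in XX, 23342, 6595 and 6251 in XO and 18289, 12432 and 11622 in XY pools. Both rRNAs thus had their highest counts in XO1 and XY1.

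The 2 rRNAs lie next to each other on the precursor, with only mt-Tv between them, but their UMIs were unequal. The ratio of mt-Rnr2 to mt-Rnr1 was 5.12, 6.32 and 4.72 in XX, 6.05, 5.27 and 4.96 in XO and 6.00, 5.56 and 4.44 in XY pools. Per length it was 2.68 to 3.82 over the 9 pools. The ranges overlapped in all contrasts. The tRNA between them, mt-Tv, was read with 2 to 23 UMIs per pool.

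Among the mRNAs, a few genes held most of the UMIs. The gene mt-Nd1, a subunit of complex I, held 18.8–23.4% of the mRNA UMIs, mt-Cytb of complex III 18.8–22.4%, and mt-Atp8 of the ATP synthase 18.5–20.4%. Next were mt-Nd5 with 8.04–11.8% and mt-Co1 with 8.11–11.5%. The gene mt-Nd3 was the lowest in every pool, with 62 to 373 UMIs. By complex, the 7 genes of complex I held 41.5–44.6% of the mRNA UMIs, mt-Cytb of complex III 18.8–22.4%, the 3 genes of complex IV 13.8–18.0% and both genes of complex V 20.0–21.3%. The division by complex thus varied by at most 1.31-fold over the 9 pools. Only that of complex V separated a pair of genotypes, with 20.0–20.4% in XO and 20.7–21.2% in XY oocytes.

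**Figure D3:**
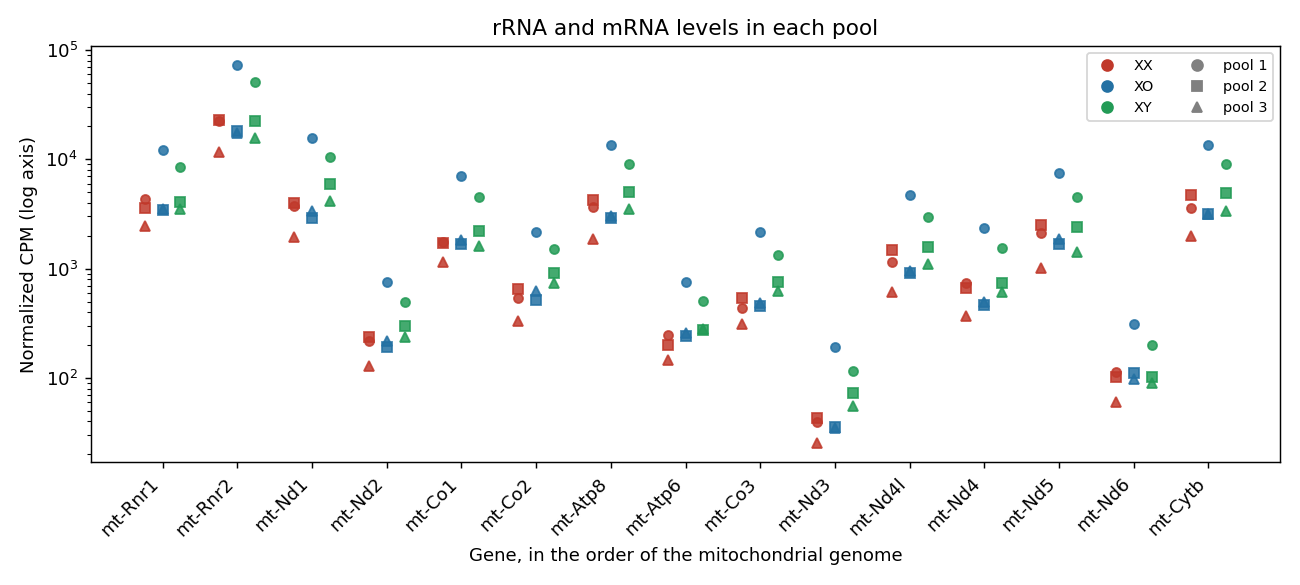
Points give the normalized CPM (log axis) of the 2 rRNA and 13 mRNA genes, ordered along the genome, with colours for genotypes and symbols for pool numbers. For every gene XO1 is the highest point and XY1 the next, and the genes keep similar distances in all pools.

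Of the single mRNAs, mt-Nd1 and mt-Co2 took a larger part in XY than in XX oocytes. Among mitochondrial UMIs mt-Nd1 was 8.35, 8.30 and 8.08% in XX, 9.98, 7.96 and 9.01% in XO and 9.76, 11.3 and 11.2% in XY pools. The XX and XY pools did not overlap, while the XO pools overlapped with both. The gene mt-Co2, a subunit of complex IV, was 1.20, 1.36 and 1.37% in XX, 1.38, 1.41 and 1.64% in XO and 1.42, 1.75 and 1.99% in XY pools, and XX was below both other genotypes. The share of mt-Nd3, another subunit of complex I, was 0.0882–0.105% in XX and 0.109–0.151% in XY oocytes. For 3 of the 28 genes that passed the filter on low counts, XX was below XY without overlap on this scale (mt-Nd1, mt-Co2 and mt-Nd3), against 0.864% of all genes. For 3 others, the tRNAs mt-Tm, mt-Ts2 and mt-Tl2, XX was above XY, against 11.2% of all genes. Below XO oocytes in XX were 2 of the 28, mt-Co2 and mt-Tr, against 0.273% of all genes, and above them 1, mt-Ts2, against 9.52%. XY was below XO for 2, mt-Co1 and mt-Tr, against 0.982% of all genes. Nuclear genes were divided by the same mitochondrial total, which makes the percentages over all genes unequal in both directions. On this scale those percentages follow the mitochondrial share of the pools. They therefore give no expected number for the mitochondrial genes, and no excess can be read from them.

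UMIs were also compared along the plus strand. From mt-Nd1, near the start of the plus strand genes, to mt-Nd5, near their end, the ratio of UMIs was 1.80, 1.59 and 1.91 in XX, 2.09, 1.74 and 1.81 in XO and 2.32, 2.47 and 2.91 in XY pools. XY oocytes were above both other genotypes in every pool, with means of 2.57 ± 0.306 (SD, n = 3) against 1.77 ± 0.165 in XX and 1.88 ± 0.186 in XO oocytes. This does not extend to mt-Cytb (chrM:14145-15288), the last mRNA gene of the plus strand. Among mitochondrial UMIs XO1 had 9.98% mt-Nd1 and 8.58% mt-Cytb, and XY1 9.76 and 8.57%. Set against mt-Cytb, mt-Nd1 thus does not separate XY from XO oocytes. The ratio of mt-Nd1 to mt-Rnr2 was 0.168–0.174 in XX and 0.204–0.267 in XY oocytes, and the 0.163–0.214 of XO oocytes overlapped with both. These gene pairs were chosen by position after earlier results of the data were known, and carry no test.

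Some pairs of mRNAs are known to stay on a shared RNA, and here the first gene of each pair had more UMIs. The reading frame of mt-Atp8 (chrM:7766-7969) overlaps that of mt-Atp6 by 43 bases, and the whole mt-Atp8 gene is shown to display the stretch that both genes share, in capitals, on GRCm38 with the sequence of Gencode vM21:

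mt-Atp8: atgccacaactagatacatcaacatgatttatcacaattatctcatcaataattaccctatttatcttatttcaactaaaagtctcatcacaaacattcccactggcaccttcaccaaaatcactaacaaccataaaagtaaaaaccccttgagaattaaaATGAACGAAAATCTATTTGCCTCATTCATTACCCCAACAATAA

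A UMI marks the 5′ end of an RNA, and mt-Atp8 lies at the 5′ side of the pair. UMIs of mt-Atp8 exceeded those of mt-Atp6 15-, 21.3- and 12.8-fold in XX, 18.0-, 11.8- and 11.8-fold in XO and 17.8-, 18.3- and 12.5-fold in XY oocytes. The pair of mt-Nd4l and mt-Nd4, which overlap by 7 bases, had a ratio of 1.56–2.22 in XX, 1.92–2.01 in XO and 1.80–2.14 in XY pools. Neither ratio separated the genotypes, and reads in the overlap cannot be assigned to one gene of a pair.

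The minus strand gave few UMIs. Its 9 genes had 312 to 1383 UMIs per pool, 0.352 to 0.604% of the mitochondrial UMIs, and without mt-Ty 0.331 to 0.471%. The only mRNA among them, mt-Nd6 of complex I, had 317, 292 and 196 UMIs in XX, 608, 215 and 172 in XO and 433, 316 and 301 in XY pools. It overlaps the 3′ end of mt-Nd5 on the other strand by 14 bases. Its share of mRNA UMIs was 0.486–0.614% in XX, 0.446–0.727% in XO and 0.407–0.511% in XY pools, with overlap.

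All 22 tRNAs were detected, although 10 of them had a mean below 10 UMIs per pool. Per pool these 10 ranged from 0 to 23 UMIs, and mt-Tc, mt-Td, mt-Tg, mt-Th and mt-Tk had 0 in at least 1 pool. A count of 0 allows up to 3 UMIs by counting error. Of the 12 others, the 4 on which the results turn are shown with the anticodon in capitals (GRCm38, 5′ to 3′ on the strand of the gene, from Gencode vM21). They are the tRNA for methionine, mt-Tm, at chrM:3845-3913 on the plus strand, and that for tyrosine, mt-Ty, at chrM:5260-5326 on the minus strand. The tRNA for arginine, mt-Tr, lies at chrM:9808-9875 on the plus strand, and mt-Ts1, for serine, at chrM:6870-6938 on the minus strand:

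mt-Tm: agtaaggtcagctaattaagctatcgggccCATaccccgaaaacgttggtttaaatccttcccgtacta
mt-Ty: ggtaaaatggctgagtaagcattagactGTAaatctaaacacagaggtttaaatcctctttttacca
mt-Tr: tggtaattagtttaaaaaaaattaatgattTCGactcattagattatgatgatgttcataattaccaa
mt-Ts1: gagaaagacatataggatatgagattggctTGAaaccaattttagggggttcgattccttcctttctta

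The tRNA with the most UMIs was mt-Tm, which adjoins mt-Nd2 with no base between them. It had 298, 368 and 219 UMIs in XX, 894, 158 and 149 in XO and 508, 366 and 234 in XY pools. This was 31.1 to 53.6% of all tRNA UMIs, with 48.7–53.6% in XX and 31.1–46.9% in XY oocytes. The 31.1% is that of XY1, where 627 of 1635 tRNA UMIs came from mt-Ty and lowered the part of mt-Tm. The gap between XX and XY oocytes in this share therefore depends on mt-Ty and is not read as a difference in mt-Tm. The ratio of mt-Tm to mt-Nd2 was 0.482–0.548 in XX and 0.297–0.473 in XY oocytes, without overlap, and 0.383–0.614 in XO oocytes.

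The 8 other tRNAs with a mean of at least 10 UMIs were mt-Tp for proline with 21 to 151 UMIs per pool, mt-Tq for glutamine with 15 to 81, mt-Tl1 for leucine with 14 to 71, mt-Ti for isoleucine with 6 to 47, mt-Tt for threonine with 7 to 38, mt-Ta for alanine with 9 to 34, mt-Tn for asparagine with 4 to 28 and mt-Te for glutamate with 6 to 22. Their highest count was in XO1, except for mt-Ta, which was highest in XY1, and mt-Te, which was equal in both. Of the tRNAs below this mean that had UMIs in all pools, mt-Tf for phenylalanine had 1 to 21 and mt-Tw for tryptophan 2 to 15.

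The tRNA mt-Ty had 9, 1 and 0 UMIs in XX, 2, 0 and 1 in XO and 627, 5 and 1 in XY pools. XY1 thus held 627 UMIs where no other pool had more than 9, and mt-Ty was the tRNA with the most UMIs in that pool, 38.3% of the class. Its minus strand neighbours had counts near those of XO1, the pool with the most mitochondrial UMIs, with 5 UMIs of mt-Tc, 23 of mt-Tn and 34 of mt-Ta in XY1 and 3, 28 and 24 in XO1. The filter on low counts removed mt-Ty from the test, and since XY2 and XY3 had 5 and 1 UMIs, its count in XY1 describes that pool and not the genotype.

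The tRNA mt-Tr had 18, 14 and 16 UMIs in XX, 83, 21 and 19 in XO and 25, 28 and 27 in XY pools. As a part of the mitochondrial UMIs it was 0.0142, 0.0103 and 0.0202% in XX, 0.0274, 0.0295 and 0.0285% in XO and 0.0109, 0.0175 and 0.0220% in XY pools. The XO pools were above all others on this scale, and XX and XY overlapped. The tRNA mt-Ts1 had 56, 53 and 48 UMIs in XX, 148, 40 and 51 in XO and 96, 87 and 101 in XY pools. Its part of the mitochondrial UMIs, 0.0390 to 0.0824%, overlapped between all genotypes.

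**Figure D4:**
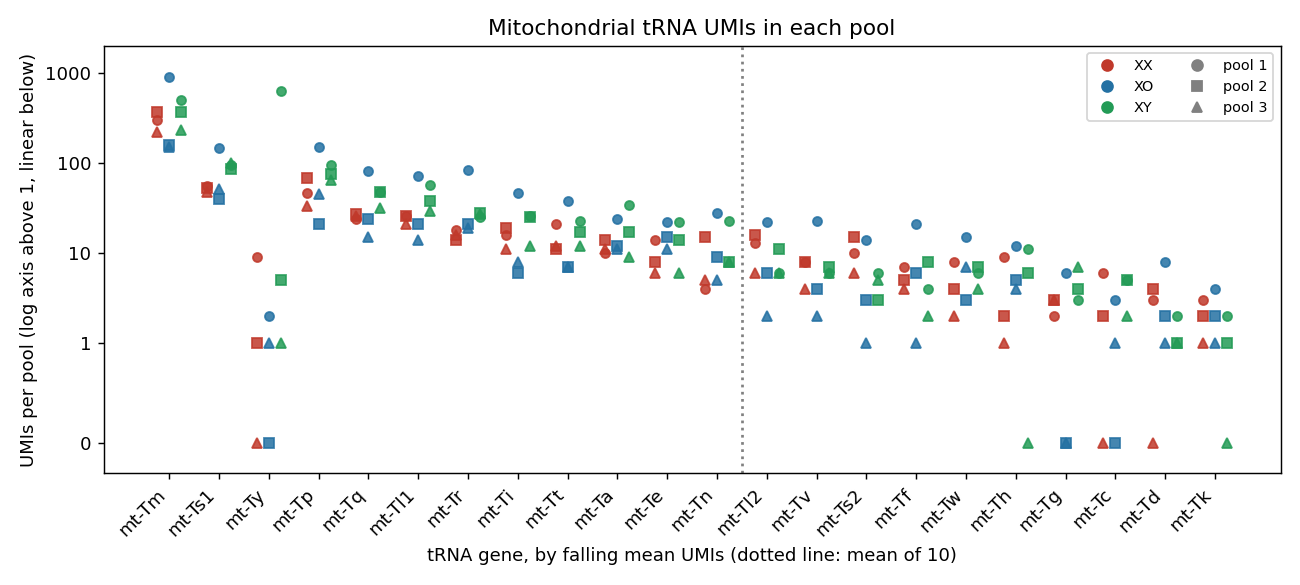
Points give the UMIs of the 22 tRNAs in each pool (log axis above 1 UMI, linear below), ordered by falling mean, with the dotted line at a mean of 10 UMIs. The point of mt-Ty at 627 UMIs in XY1 stands far above its 8 other pools, and mt-Tm is highest in all pools but XY1.

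Differences in transcript level between genotypes were tested in edgeR by quasi-likelihood on the UMIs, scaled by the authors' spike-in factors, with all 9 pools in the fit. Of the 37 genes, 28 passed edgeR's filter on low counts (2 rRNAs, 13 mRNAs and 13 tRNAs), among 10993 genes in all, and the 9 others were tRNAs. A call was made at an unadjusted p of 0.05, the threshold of the study. The study tested with limma and covariates from sva, whereas this fit had no covariates. In this edgeR fit, 0 of the 28 genes passed 0.05 after Benjamini-Hochberg adjustment in any contrast. Of all genes 0.0, 0.0819 and 0.0364% passed (XX and XO, XX and XY, XY and XO). With sva covariates 3, 11 and 0 of the 28 mitochondrial genes passed after adjustment in these contrasts, all of them lower in XX. With no filter 1 of 37 passed in each contrast. This was mt-Tr between XX and XO, and mt-Ty, from its UMIs in XY1, in the others. The share of all genes that passed after adjustment under these alternatives was not counted. Their unadjusted calls are given at the end. At an unadjusted p of 0.05, DESeq2 called 1, 0 and 0 of 36 mitochondrial genes in the same contrasts, against 6.5, 2.49 and 4.72% of all genes. Bulk pools give RNA amounts, so that fewer mitochondria or genome copies and less RNA from each cannot be told apart.

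Between XX and XO oocytes, 2 of 28 mitochondrial genes were called, mt-Tr and mt-Ts1, both lower in XX oocytes. Of all tested genes 16.7% were called lower in XX, and 18.1% in either direction. Normalized CPM of mt-Tr was 6.41, 4.90 and 4.87 in XX and 43.0, 10.9 and 10.7 in XO oocytes, a log2 fold change of -1.99 ± 0.56 (SE, adjusted p = 0.203 by edgeR). That of mt-Ts1 was 19.9, 18.6 and 14.6 in XX and 76.6, 20.7 and 28.8 in XO oocytes, with -1.25 ± 0.47 (adjusted p = 0.233 by edgeR). The 2 rRNAs had log2 fold changes of -0.87 ± 0.63 for mt-Rnr1 and -0.94 ± 0.79 for mt-Rnr2, and neither was called. The 13 mRNAs lay between -1.28 and -0.90, and the 13 tRNAs between -1.99 and 0.16.

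Below 0 were 27 of the 28 values and 80.3% over all genes, and their median was -1.06 beside -0.46 over all genes. Without XO1 the median over the 28 mitochondrial genes was -0.04 beside -0.45 over all genes, so that they no longer lay below the other genes. The call of mt-Ts1 was lost without XO1 (-0.48), without XX2 (-1.28) and without XX3 (-1.13). That of mt-Tr was kept without XO1, with a smaller log2 fold change of -0.997 ± 0.36 (adjusted p = 0.0653 by edgeR). When the spike-in totals themselves set the scale, 0 of 28 mitochondrial genes were called, against 3.12% of all genes. The median over all genes then moved from -0.46 to 0.42. The mitochondrial median stayed 0.61 below that of all genes with the factors of the authors and 0.55 below it with the spike-in totals. Pools did not overlap in normalized CPM for 4 of 28 genes, mt-Ta, mt-Ts1, mt-Tr and mt-Te, all lower in XX, against 13.6% of all genes. With sva covariates edgeR called 18 of the 28 genes, all lower in XX, against 14.3% of all genes in either direction.

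Between XX and XY oocytes, 0 of 28 mitochondrial genes were called by edgeR at an unadjusted p of 0.05, while 5.8% of all genes were called. The 2 rRNAs had log2 fold changes of -0.63 ± 0.63 for mt-Rnr1 and -0.65 ± 0.79 for mt-Rnr2, the 13 mRNAs lay between -1.17 and -0.52, and the 13 tRNAs between -0.98 and 1.03. The rRNA values turned to 0.16 and 0.15 with the spike-in totals as scale. Below 0 were 26 of the 28 values and 69.4% over all genes, with medians of -0.81 and -0.19. Without XY1 these medians were -0.29 and -0.20. Although none was called, pools did not overlap in normalized CPM for 9 of 28 genes, all lower in XX, against 11.7% of all genes. These were the mRNAs mt-Nd1, mt-Nd2, mt-Nd3, mt-Co2, mt-Co3 and mt-Atp6, and the tRNAs mt-Tq, mt-Ts1 and mt-Tr. Normalized CPM of mt-Nd3 was 39.9, 43.4 and 25.3 in XX and 116, 72.6 and 55.8 in XY oocytes. When XO1, which shares the estimate of the spread, was left out, these 9 genes were called, as were 11.1% of all genes. With sva covariates, which the study also used, edgeR called 17 of the 28 genes, all lower in XX, against 20.4% of all genes in either direction.

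Between XY and XO oocytes, 0 of 28 mitochondrial genes were called by edgeR, against 9.93% of all genes in either direction. The 2 rRNAs had log2 fold changes of -0.24 ± 0.63 for mt-Rnr1 and -0.29 ± 0.79 for mt-Rnr2, and the largest difference was that of mt-Tr, -1.17 ± 0.54 (adjusted p = 0.504 by edgeR). With the pool number as a block, 1 gene was called, mt-Tr, with -0.94 ± 0.40 (adjusted p = 0.293 by edgeR), where 16.6% of all genes were called. All 28 values were below 0, as were 71.9% over all genes, with medians of -0.29 and -0.30. Pools did not overlap in normalized CPM for 0 of 28 genes, against 6.34% of all genes that were lower in XY. Without XO1 the median turned to 0.71 beside -0.28 over all genes, and 3 genes were called higher in XY oocytes, mt-Nd1, mt-Nd3 and mt-Co3, against 4.53% of all genes. Any 2 of the contrasts share the pools of 1 genotype, and their values are not independent.

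**Figure D5:**
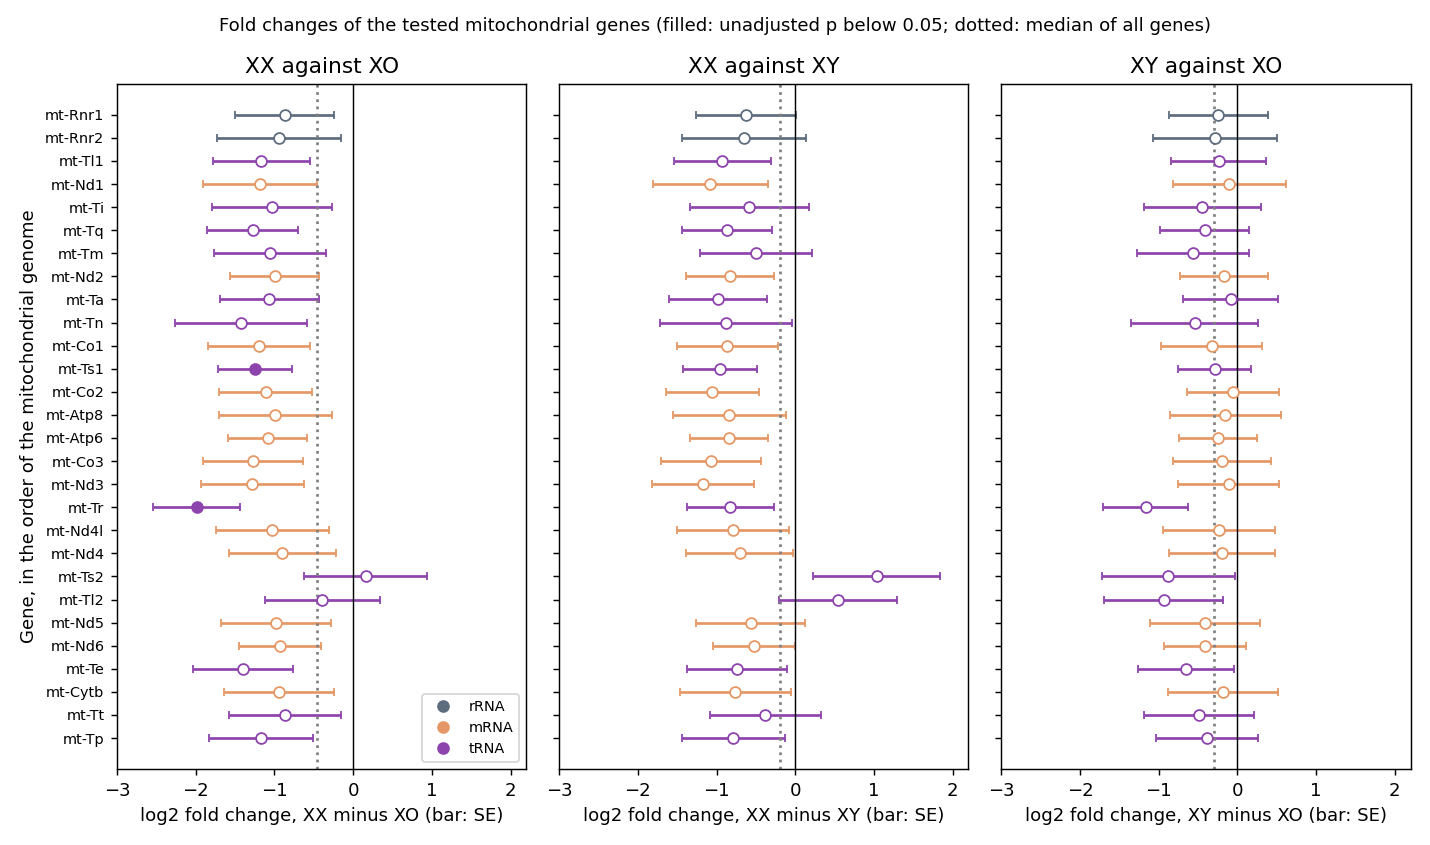
Points and bars give the log2 fold change and SE of the 28 tested mitochondrial genes in 3 contrasts, with the median over all genes as a dotted line and filled points for an unadjusted p below 0.05. Most points of both XX contrasts lie left of 0 and of the dotted line, while filled points are seen for mt-Tr and mt-Ts1 between XX and XO oocytes alone.

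Set against the spike-ins, mitochondrial RNA varied less over the pools than nuclear RNA. Mitochondrial UMIs per spike-in UMI were 10.6, 8.95 and 14.7 in XX, 19.9, 8.73 and 7.15 in XO and 12.4, 8.76 and 12.4 in XY pools, a 2.79-fold range. Nuclear UMIs per spike-in UMI were 198, 152 and 474 in XX, 132, 271 and 263 in XO and 103, 137 and 308 in XY pools, a 4.62-fold range. XO1 was the highest pool for mitochondrial and the lowest XO pool for nuclear UMIs, and XY1 was the lowest of all for nuclear UMIs. Spike-in UMIs themselves ranged 3.44-fold, and the part of spike-in handling in these values was not tested.

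Part of the nuclear genome repeats the mitochondrial sequence, which bears on how the counts of 7 mRNAs can be read. On chromosome 1 (GRCm38, minus strand) 7 genes between 24611535 and 24616197 are copies of adjoining mitochondrial genes, from mt-Co1 to mt-Nd4. Over the aligned bases 6 of the copies were identical to the mitochondrial gene, and Gm29216 shared 482 of 483 bases with mt-Co1. For Gm28438 the alignment began at base 4 and left out the base before it that differs from mt-Nd3. The starts of mt-Nd4l (chrM:9877-9936) and of its copy Gm10222 (chr1:24612641-24612700) are shown because the stretches cannot be told apart by sequence, followed by those of mt-Nd3 (chrM:9459-9498) and Gm28438 (chr1:24613080-24613119), with the base that differs in capitals:

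mt-Nd4l: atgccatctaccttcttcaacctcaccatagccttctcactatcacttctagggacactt
Gm10222: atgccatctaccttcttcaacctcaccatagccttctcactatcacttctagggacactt
mt-Nd3: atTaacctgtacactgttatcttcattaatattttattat
Gm28438: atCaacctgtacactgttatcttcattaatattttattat

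Counts of some copies nearly equalled those of the mitochondrial gene. The UMI ratio of copy to mitochondrial gene was 0.989–1.01 for Gm10222 and mt-Nd4l, 0.992–0.999 for Gm28437 and mt-Co3 and 0.948–0.973 for Gm28661 and mt-Co2 over the 9 pools. It was 0.811–0.878 for Gm28439 and mt-Nd4 and 0.616–0.778 for Gm10925 and mt-Atp6. For Gm28438 and mt-Nd3 it was 0.126–0.265, and for Gm29216 and mt-Co1 0.0579–0.0944. All copies together had 6.71 to 8.93% as many UMIs as the mitochondrial genes, so that the levels of mt-Co1, mt-Co2, mt-Atp6, mt-Co3, mt-Nd3, mt-Nd4l and mt-Nd4 are uncertain to the extent that reads fell on a copy.

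Of the 6 listed copies (Gm10222 was added after the data were seen), 2 were called lower in XX than XO oocytes, Gm10925 and Gm29216, with log2 fold changes of -1.14 ± 0.46 and -1.36 ± 0.47 (SE), against 16.7% of all genes. Gm29216 was also called lower in XX than XY oocytes (-1.08 ± 0.47), against 4.39% of all genes, and 0 were called between XY and XO oocytes. Their median was -1.13, -0.98 and -0.18 in the 3 contrasts, beside -0.46, -0.19 and -0.30 over all genes. These medians were near those of the mitochondrial genes, -1.06, -0.81 and -0.29. Since identical stretches cannot be told apart by sequence, the values of the copies are not a measure independent of the mitochondrial genes.

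Nuclear genes that act on mitochondrial RNA and DNA had median fold changes near those of all genes. Of 15 tested genes of mitochondrial transcription and DNA maintenance, 2 were called lower in XX than XO oocytes, against 16.7% of all genes. They were Twnk, the helicase of mitochondrial DNA replication (-1.86 ± 0.76), and Mgme1, an exonuclease (-1.30 ± 0.45). Normalized CPM of Twnk was 4.99, 6.65 and 9.14 in XX, 3.11, 19.1 and 54.2 in XO and 2.79, 3.58 and 4.53 in XY pools, so that XO1 was below all XX pools and XO2 and XO3 were above them. That of Mgme1 was 5.18–12.1 in XX pools and 10.9, 21.7 and 31.6 in XO pools. Between XX and XY oocytes 1 was called lower, against 4.39% of all genes. This was Mterf2, a member of the mitochondrial termination factor family (-1.32 ± 0.34). Its normalized CPM was 9.26, 8.05 and 6.09 in XX, 9.32, 11.4 and 5.65 in XO and 17.2, 21.2 and 20.2 in XY pools, and the XY pools were above all others. Between XY and XO oocytes Mterf2 was called higher in XY (1.15 ± 0.34), and Twnk lower (-2.77 ± 0.81). Of all genes 1.69% were called higher and 8.24% lower in XY.

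Of 17 tested genes of mitochondrial RNA processing, polyadenylation and decay, 1 was called, lower in XX than XO oocytes, against 16.7% of all genes. This was Mtpap, the mitochondrial poly(A) polymerase (-1.92 ± 0.74). Its normalized CPM was 29.9, 21.7 and 51.5 in XX, 21.7, 155 and 216 in XO and 24.2, 42.6 and 75.8 in XY pools. XO1, the pool with the most mitochondrial RNA, was as low as XX2. Of 15 tested genes that modify mitochondrial rRNA and tRNA, 4 were called lower and 1 higher in XX than XO oocytes. Of all genes 16.7% were called lower and 1.40% higher. Among those of the list Rpusd4, a pseudouridine synthase, had -1.94 ± 0.51, Trmt2b, a tRNA methyltransferase, -1.60 ± 0.62, and Trit1, a tRNA isopentenyltransferase, -1.26 ± 0.45. Between XY and XO oocytes Rpusd4 was called lower in XY (-1.95 ± 0.51) and Mettl15, an rRNA methyltransferase, higher (0.73 ± 0.28), against 8.24 and 1.69% of all genes. None of the list was called between XX and XY oocytes, against 5.8% of all genes.

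The medians of the 3 lists between XX and XO oocytes, -0.40, -0.33 and -0.46, were near the -0.46 over all genes, where 18.1% were called. Between XX and XY oocytes they were -0.27, -0.16 and -0.14, beside -0.19 over all genes, and between XY and XO oocytes -0.25, -0.10 and -0.36, beside -0.30. After adjustment by edgeR 0 genes of these lists passed 0.05 in any contrast.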

How the data were processed

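Smart-seq3 libraries of 9 oocyte pools were analysed. The authors aligned reads with HISAT2 to GRCm38 (mm10) and Gencode, and deposited the number of 5′ UMIs per gene as counts. A second deposited matrix holds a signal, the counts scaled by ERCC spike-in factors (normalized CPM), and another log2 values after regression of batch effects with sva by the authors. When checked, 2 components across pools held 99.9996% of the change made by that regression. UMIs of near-identical genes and overlapping genes were used as deposited, and how reads with several positions were counted is not given in the sources used here.

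Genes on chrM were taken by the deposited coordinates, which equalled those of Gencode vM21 for all 37. Counts were tested with edgeR 4.0.16 (quasi-likelihood F test, two-sided, filterByExpr, TMM factors of the 79 spike-ins, all 9 pools, 1 mean per genotype) in R 4.3.3 at an unadjusted p of 0.05. Class sums and ratios were given per pool, with no test. Alternatives were other scalings, no filter, DESeq2 1.42.0, sva 3.50.0 with 2 covariates, a replicate block, each pool left out in turn and, chosen after seeing the data, the 3 pools of number 1 left out, mitochondrial UMIs as library size and tRNAs without mt-Ty. Scripts were tested on simulated data. Named were the 37 genes, with tRNAs below a mean of 10 UMIs named only for a count of 0, a position or pools that did not overlap, or by their range, all listed nuclear copies, and of each nuclear list up to 3 called genes with the largest change per contrast. Members and lists were chosen with earlier results of these data known.

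Pools of the same number were checked for pairing by the correlation of their deviations from the genotype means over 10993 genes. It was 0.830, 0.278 and 0.773 between XY and XO pools. The main test had no term for the pool number, which entered only as the replicate block among the alternatives. The labels do not say what a number marks. UMI intervals cover counting error only. Depth was 2130145 to 3157338 gene UMIs per pool. No pool was left out.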

Additional observations from a re-analysis of the deposited data

How the results depend on the processing

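The number of mitochondrial genes called between XX and XO oocytes, 2, is given with the share of all genes called in brackets. It was 1 with TMM on the genes (11.9%) and with DESeq2 (6.5%), 0 with spike-in totals (3.12%), with mitochondrial UMIs as library size (2.95%) and after Benjamini-Hochberg adjustment (0.0%), 17 of 37 with no filter (14.1%), 18 of 28 with sva covariates (14.3%) and 7 with the replicate block (23.0%). Between XX and XY oocytes the count of 0 was 5 with no filter (4.33%), 17 with sva covariates (20.4%), 3 with the replicate block (9.16%), 3 without the 3 pools of number 1 (10.8%) and 1 with mitochondrial UMIs as library size (2.91%). Between XY and XO oocytes the count of 0 was 3 with no filter (9.75%), 4 with sva covariates (18.2%), 1 with the replicate block (16.6%) and 1 without the 3 pools of number 1 (25.8%). Leaving out each pool in turn gave 1 to 9, 0 to 9 and 0 to 3 calls in these contrasts, with the 9 between XX and XO without XO2 (13.5%), and the 9 and 3 without XO1 (11.1 and 32.1%). Same-numbered XX and XO pools correlated by 0.468, -0.447 and 0.679, and XX and XY pools by 0.435, -0.0595 and 0.726. These values do not settle whether pools of a number were paired. The causes of these changes were not tested.

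The log2 fold change of mt-Rnr1 turned to 0.080 (XX and XO) and 0.16 (XX and XY) with spike-in totals, to 0.054 and 0.11 with mitochondrial UMIs as library size, and to 0.12 (XY and XO) without the 3 pools of number 1. That of mt-Rnr2 turned to 0.15 (XX and XY) with spike-in totals, to 0.031 and 0.12 with mitochondrial UMIs as library size, and to 0.10 (XY and XO) without the 3 pools of number 1, where mt-Ts1 turned to 0.25. Leaving out each pool in turn gave -0.75 to 0.63 for mt-Rnr1, -0.93 to 0.74 for mt-Rnr2 and -0.62 to 0.47 for mt-Ts1 between XY and XO oocytes, and -1.27 to 0.088 for mt-Rnr2 between XX and XO oocytes. The sign of mt-Tr held under all alternatives run in all 3 contrasts. Without the filter, mt-Ty was tested, with a log2 fold change of -6.35 for XX minus XY and 7.39 for XY minus XO oocytes, from its UMIs in XY1.

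Without rRNA, the mitochondrial share was 2.0% in XX, 2.99% (SD 3.00) in XO and 3.34% in XY pools. Leaving out each pool in turn gave means of 4.05 to 5.32% in XX, 2.88 to 8.12% in XO and 4.95 to 8.39% in XY oocytes. The ratio of rRNA to mRNA was 13.2, 12.2 and 11 in XX, XO and XY oocytes from geometric means and 1.70, 1.63 and 1.48 without mt-Nd1, with the same order, and 1.33 to 1.43, 1.24 to 1.34 and 1.06 to 1.18 with each pool left out. The tRNA percentage of mRNA was 0.599 in XX, 0.671 in XO and 0.746 (SD 0.336) in XY pools without mt-Tm. The XY mean still holds mt-Ty, with 1.13 in XY1, 0.535 in XY2 and 0.569 in XY3. Without mt-Nd1 the percentage was 1.52 in XX, 1.56 in XO and 1.56 (SD 0.482) in XY pools. With each pool left out, that of all tRNAs to all mRNAs was 1.16 to 1.26 in XX, 1.23 to 1.25 in XO and 0.986 to 1.33 in XY oocytes. With 3 pools per genotype and few tRNA UMIs, small differences were not detectable.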
